A study of Mus musculus with 59 samples.

Results

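Transthyretin (Ttr) and 4 adult haemoglobin genes (Hba-a1, Hba-a2, Hbb-bs and Hbb-bt) were examined in 59 single mouse cells, because their products belong to the choroid plexus and to red blood cells rather than to neurons. These 5 members were chosen by symbol, with their pattern in these cells already known, out of 20689 genes in the table, and all 5 have a row there. The 59 cells form 1 group: cells called chemical-induced neurons by the labels, from a study that turned astrocytes into neurons inside the brain with chemicals, with an age label of 12 weeks. The labels do not give strain, genotype, animal, the chemicals or the brain region. Each cell's content was sucked into a glass patch pipette in the living brain after its membrane had been ruptured, and the pipette tip was broken off into lysis buffer. With no animal named the cells count as 1 sample, so values describe these cells and no test between groups was possible.

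Transthyretin is a secreted protein that carries thyroid hormone and, together with retinol-binding protein, vitamin A. In the brain it is made above all by the epithelium of the choroid plexus, the tissue in the ventricles that forms cerebrospinal fluid. Haemoglobin carries oxygen in red cells and is built from alpha chains (Hba genes) and beta chains (Hbb genes). Young red cells still hold globin mRNA, and globin transcripts have also been described in some neurons and glia.

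The members differ in how well their reads can be told apart, which bears on every haemoglobin value. Over their coding sequences of 429 bases in GENCODE M21 on GRCm38, Hba-a1 and Hba-a2 differ at 1 base, C381T, counted from the A of the start codon with the Hba-a1 base first. Hbb-bs and Hbb-bt differ at 1 of 444 bases, C417T, with the Hbb-bs base first. The coding stretches that hold these differences are shown because they are the only coding positions at which a read tells the paralogs apart, with the differing base in capitals.
Hba-a1: catgcctctctggaCaaattccttgcctct
Hba-a2: catgcctctctggaTaaattccttgcctct
Hbb-bs: gccttccagaaggtggtggctggagtggcC
Hbb-bt: gccttccagaaggtggtggctggagtggcT
The alpha stretches span coding positions 367 to 396 and the beta stretches 388 to 417. Of all 50-base words of the main transcript, 67.5% of those of Hba-a1 and 86.9% of those of Hba-a2 also occur in the other alpha gene, as do 65.8% for Hbb-bs and 58.3% for Hbb-bt in the other beta gene. For Ttr the share found in any other gene is 0%. The promoters of the alpha pair in RefSeq (GRCm38.p6, 250 bases before to 50 after the start) are the same over 297 of 297 aligned bases. How reads with several places in the genome were counted is not given in the sources used here, so the split within each pair is uncertain. If such reads were dropped, the alpha and beta sums and their ratio would be affected too, which was not tested.

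Ttr was found in many cells at low level and in a few at very high level. Ttr (ENSMUSG00000061808.4, chromosome 18, 20665280 to 20674321, plus strand, GRCm38) was detected, at an FPKM of 1 or more, in 25 of 59 cells (42.4%, exact Clopper-Pearson 95% interval 29.6 to 55.9%). FPKM is a fragment count scaled to exon length and to the fragments of the cell, and the interval covers counting error over cells only. Of all genes, 16.8% were detected in at least as many cells. Its highest value stood further out: 0.169% of genes (35, Ttr included) reached as high a maximum in any cell.

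The levels of Ttr fell on both sides of a wide gap. Over all 59 cells the lowest and the median value were 0 FPKM and the highest was 8114 FPKM, and over the 25 cells with detection the median was 67.0 FPKM. The 11 highest values were 8114 FPKM in cell 62, 7811 in cell 15, 5275 in cell 8, 3180 in cell 49, 2670 in cell 7, 2393 in cell 50, 1602 in cell 52, 868 in cell 9, 709 in cell 24, 642 in cell 51 and 289 in cell 14. The next highest cell, cell 61, had 73.1 FPKM, followed by cell 19 with 67.0 and cell 10 with 61.2. The bound of 100 FPKM used from here on lies in this gap and was set after the values had been seen, so it serves description only. Between 1 and 100 FPKM lay 14 cells, 4 had a value above 0 and below 1, and 30 were at 0.

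The highest values rested on many fragments and the lowest on a few. Fragment numbers were recovered from the spacing of low FPKM values within a cell, and values of up to 20 fragments of the alpha genes and Hbb-bt came out whole within 0.02 at the annotated exon length. For Ttr and Hbb-bs the length was set so that low values are whole, which is therefore no check of them. The 11 highest Ttr cells held from 374 fragments (cell 14) to 18152 (cell 15), and cell 61 held 112. Cells 12, 21 and 33, with 0.460, 0.280 and 0.400 FPKM, held 1 fragment each. The labels name no molecular identifiers, so fragments need not be independent molecules. In cell 62 Ttr was the gene of rank 2, with 1.74% of the summed gene FPKM, in cell 8 it ranked 8 and in cells 7 and 15 it ranked 9.

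**Figure D1:**
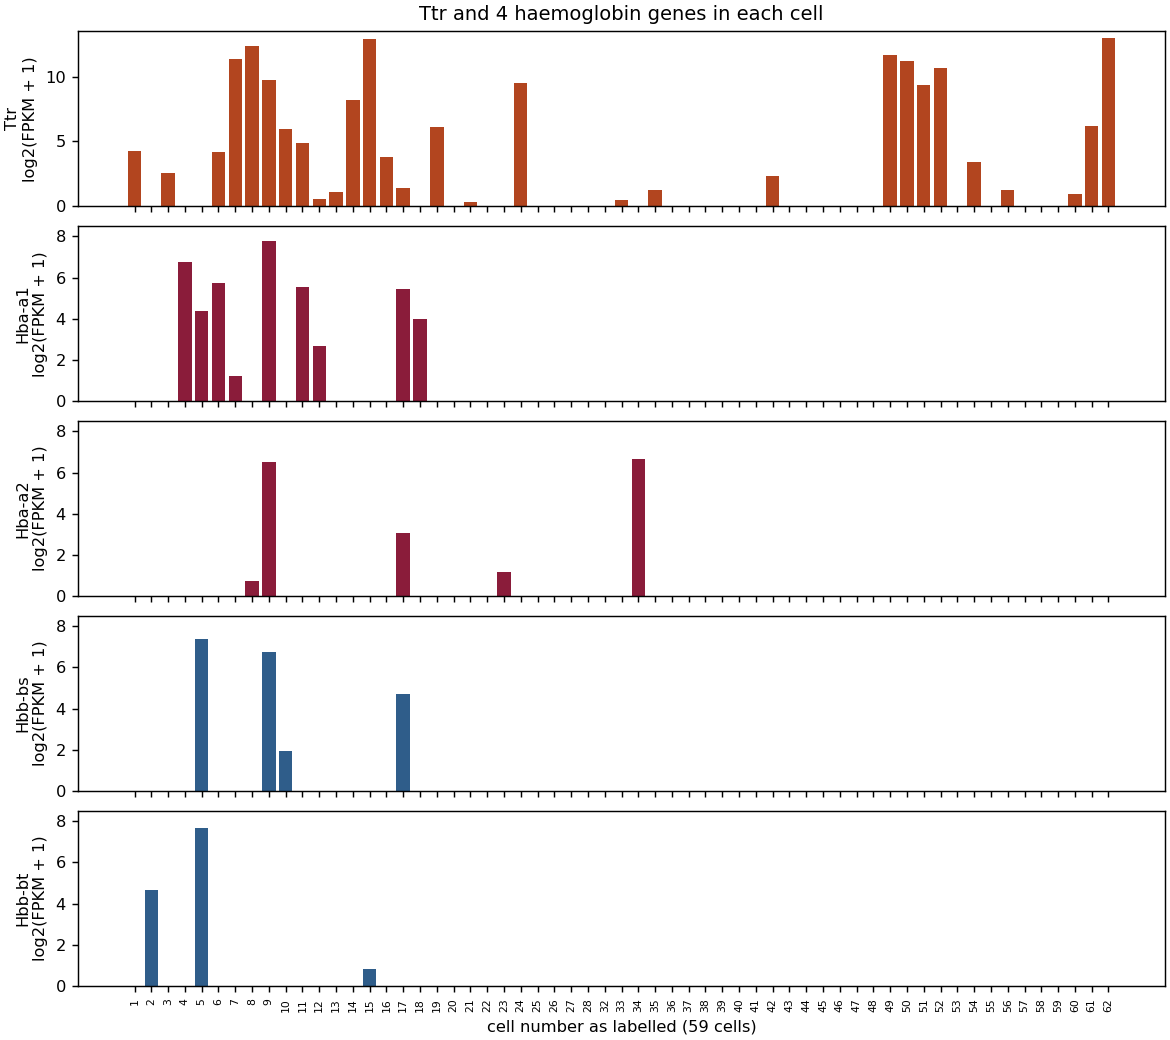
Level of each member as log2(FPKM + 1) (vertical axes; the Ttr axis reaches higher) in each of the 59 cells in the order of their labelled numbers (horizontal axis); each bar is 1 cell. Ttr is found along the whole row of cells, while every haemoglobin bar lies at cell 34 or below.

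Other choroid plexus genes were found in the cells with the most Ttr. The choroid plexus list held 22 genes, of which 21 were measured, and a median of 1 was detected per cell. Cell 8 had 19 of the 21, cell 15 had 16, cell 50 had 13, cells 24 and 51 had 10, cells 49 and 52 had 8, cells 7 and 9 had 7, cell 62 had 6 and cell 14 had 4. These are the 11 cells at or above 100 FPKM of Ttr, and in the other 48 cells the number ran from 0 to 5. Enpp2 (autotaxin, a lipid-signalling enzyme that oligodendrocytes make as well) was detected in 48 cells and does not separate these tissues, so it was left out of the next counts after its values had been seen. Without Enpp2, at least 5 of the remaining 20 genes were detected in 10 cells, and all 10 had at least 100 FPKM of Ttr. At least 3 were detected in 14 cells, 11 of them at or above that Ttr level. The other 3 were cells 17, 18 and 33, where Ttr was at 1.61, 0 and 0.400 FPKM.

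Named markers of the choroid plexus epithelium followed the same cells. Kl (klotho, a co-receptor for a fibroblast growth factor) was detected in 7 cells, with Ttr from 289 to 7811 FPKM in them. Folr1 (a folate receptor that moves folate into cerebrospinal fluid) was detected in 5 cells, with Ttr from 709 to 8114 FPKM. Kcne2 (a potassium channel subunit) was detected in 6 cells, with Ttr from 709 to 7811 FPKM. Aqp1 (a water channel) was found in 3 cells, Slc4a5 (a bicarbonate transporter) in 4, F5 in 3, Cldn2 and Tmem72 in 2 each, and Kcnj13 (a potassium channel) in cell 8. These 9 genes are named together because every cell that detected them had at least 100 FPKM of Ttr, so that overlap is fixed by the choice. For other list members the overlap was partial: 7 of 8 cells with Sostdc1, 7 of 8 with Igf2, 7 of 9 with Otx2, 10 of 13 with Calml4, 9 of 13 with 1500015O10Rik, 6 of 10 with Prlr and 4 of 6 with Car12 were at that Ttr level. Clic6 (a chloride channel-like gene) was detected in 12 cells, 10 of them at that Ttr level, and in the other 2, cells 35 and 54, Ttr was at most 9.56 FPKM. Genes of other lists overlapped in part as well, such as 5 of 6 cells with Stra6, 5 of 8 with Ccdc153 and 3 of 13 with Foxj1. The share of all genes with as much overlap was not computed, for this list or the others below.

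Some listed genes did not follow Ttr. Col8a2 was detected in 3 cells, all with Ttr at 0, and Trpv4 in 4 cells whose highest Ttr value was 67.0 FPKM. Igfbp2 was detected in 9 cells, 4 of them at 100 FPKM of Ttr or more, with its highest level of 143 FPKM in cell 33. Cell 61, with 73.1 FPKM of Ttr, had none of the 21 choroid plexus genes at an FPKM of 1.

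**Figure D2:**
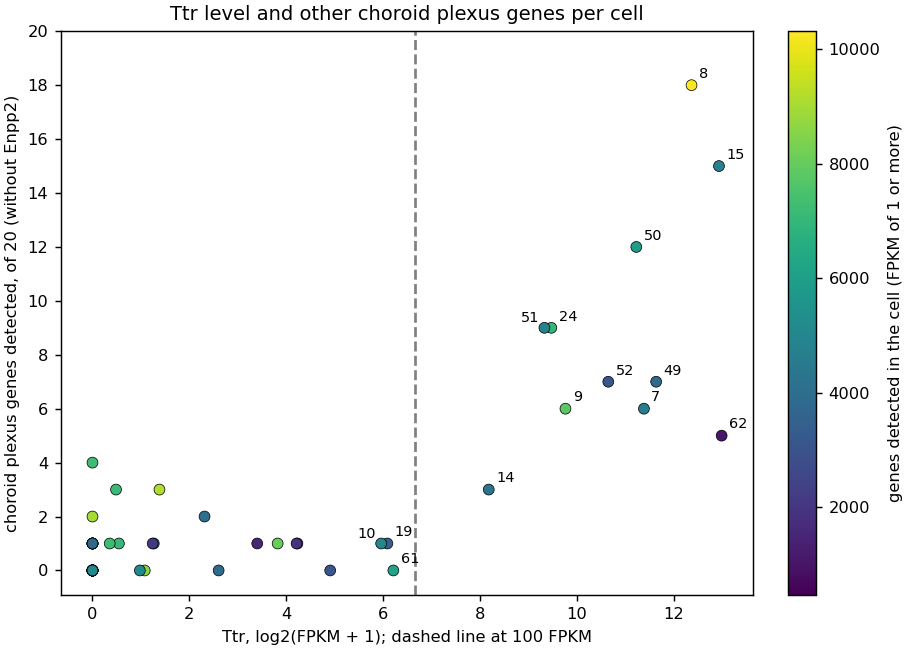
Number of the 20 choroid plexus genes other than Enpp2 detected in a cell (vertical axis) against its Ttr level as log2(FPKM + 1) (horizontal axis); each point is 1 of 59 cells, its colour is the number of genes detected and some points carry the cell number. The 11 cells to the right of the line at 100 FPKM hold 3 to 18 of these genes, and the cells to its left 0 to 4.

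Ttr ran closer to the choroid plexus genes than to depth. The Spearman correlation over 59 cells of Ttr with the number of choroid plexus genes other than Enpp2 was 0.68, against 0.28 with the number of genes detected and 0.31 with estimated depth. The number of those choroid plexus genes itself correlated at 0.38 with the number of genes detected. All these points share library, depth and amplification, and the correlations are descriptions without a p-value. Cell 8 had both the most genes detected (10310) and the most choroid plexus genes (19), and cell 9, with 7837 genes detected, had 7. Cells 13, 16 and 21, with 8552, 8076 and 7219 genes detected, had 0, 2 and 2 genes of the whole choroid plexus list. Cell 62 had 6 with only 1074 genes detected.

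**Figure D3:**
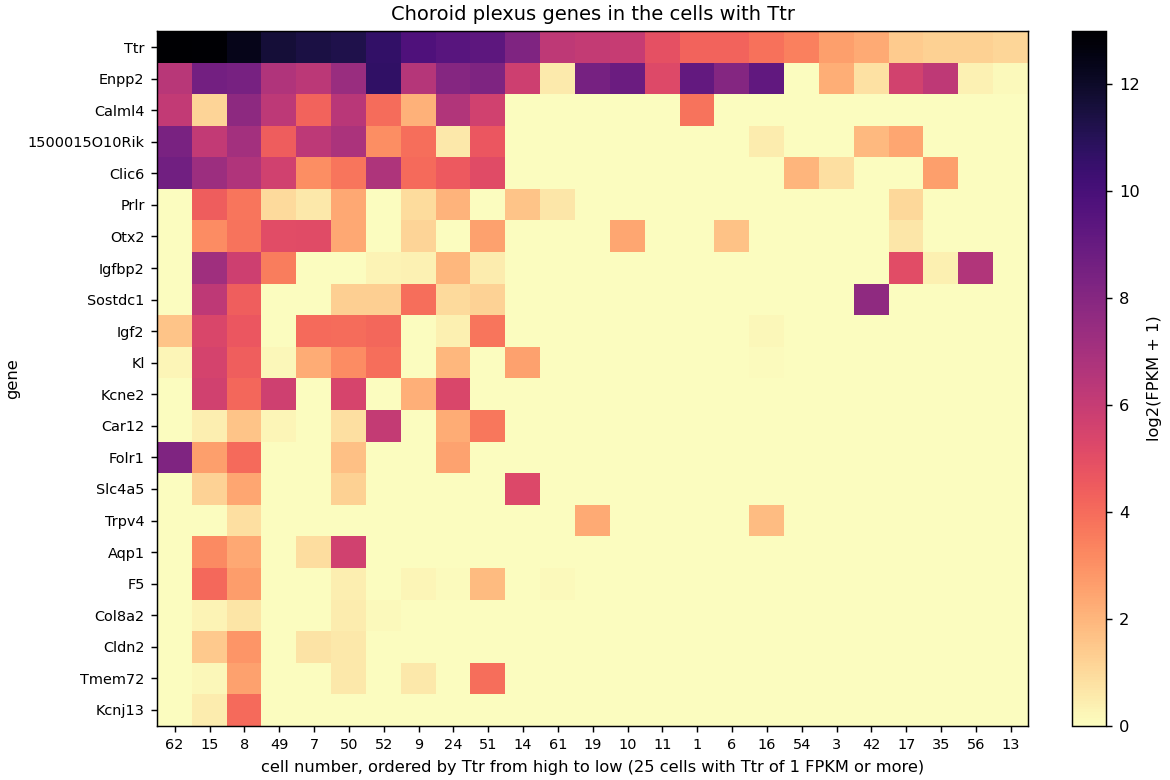
Ttr and the 21 measured choroid plexus genes (rows) as log2(FPKM + 1) in colour, in the 25 cells with Ttr of at least 1 FPKM ordered by Ttr (columns). The filled part of the map lies on the left, in the cells from 62 to 14, apart from Enpp2 and a few scattered values such as Sostdc1 in cell 42.

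The ratio of Ttr to another choroid plexus gene was not alike between cells. In the 10 cells with Clic6 detected and Ttr of at least 100 FPKM, Ttr was 15.3 to 360 times Clic6 by FPKM. Folr1 reached 295 FPKM in cell 62 and was at 5.02 in cell 15, which had nearly the same Ttr. The same cells also held neuronal genes: of 20 neuron list genes these 11 cells had 8 to 20 (median 19, against 16 over all 59 cells). Of 13 microglia genes they had 2 to 13 (median 13, against 7 over all cells). The 59 cells include these 11, and the counts were not adjusted for depth or genes detected. Ttr correlated at 0.31 and 0.28 with those. The Spearman correlation of Ttr with the mean level of a list was 0.59 for the choroid plexus (Pearson 0.82), 0.30 for microglia (Pearson 0.38), 0.22 for neurons, 0.12 for astrocytes and -0.14 for oligodendrocytes. It was 0.41 for genes of vitamin A and thyroid hormone transport and 0.32 for haem synthesis and breakdown, both above microglia. For the remaining lists it ran from 0.10 (genes of organs outside the brain) to 0.26 (other globins). The part that picked-up RNA of other cells has in the Ttr values was not tested.

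Genes of vitamin A and thyroid hormone transport, the cargo of transthyretin, were detected in part. Of 22 listed genes 20 were measured, and the median gene was detected in 15.3% of cells. Stra6 (the receptor that takes up vitamin A from retinol-binding protein) was detected in 6 cells, 5 of them with at least 100 FPKM of Ttr, and was highest in cell 62 with 414 FPKM. Slco1c1 (a thyroid hormone transporter) was detected in 7 cells, 6 of them at that Ttr level. Rbp4 (retinol-binding protein of plasma) was detected in 11 cells, 3 of them at that level. Thra (a thyroid hormone receptor) was the most widely detected with 52 cells, and Aldh1a2 (a retinoic acid-making enzyme) was the lowest with 1 cell.

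Among 8041 genes detected in at least 12 cells, likeness to Ttr was ranked by Spearman correlation over 59 cells. Clic6 (0.68), 1500015O10Rik (0.61) and Calml4 (0.61) had the highest values, and these 3 were the choroid plexus list members with the highest detection apart from Enpp2. Of the cells that detected them, 10 of 12, 9 of 13 and 10 of 13 had at least 100 FPKM of Ttr. They passed the filter of 12 cells only through those cells, so their lead is no separate support for the overlap described above. They were followed by Esrrg (0.61), Hist3h2ba (0.58), Btf3 (0.58), Adsl (0.57), Eef2 (0.56), Pes1 (0.55) and Gm8172 (0.55). The median gene had 0.15, a value above 0 for points that share depth. The order depended on the setting. Over 8 alternatives the lowest rank was 3 for Clic6, 10 for Calml4, 16 for 1500015O10Rik, 17 for Btf3, 470 for Gm8172 and 688 for Esrrg, and Btf3 ranked 1 in the 39 cells with at least 500000 fragments. Enpp2, a further list member that passed the filter, had 0.19.

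Haemoglobin was found in fewer cells, and mostly as alpha chain. At least 1 of the 4 genes was detected in 13 cells (22.0%, interval 12.3 to 34.7%), an alpha gene in 11 and a beta gene in 5. Alpha and beta were found together in 3 cells (5, 9 and 17), alpha without beta in 8, and beta without alpha in 2 (cells 2 and 10). With any value above 0 the number of cells rose to 15, and in 5 of these the whole haemoglobin signal was 1 fragment. At least 3 fragments were present in 9 cells and at least 10 in 6 (cells 4, 5, 9, 11, 17 and 34).

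Hba-a1 was the leading member. Hba-a1 (ENSMUSG00000069919.7, chromosome 11, 32283511 to 32284465, plus strand) was detected in 9 cells (15.3%, interval 7.22 to 27.0%), which 45.9% of all genes equalled or passed. Its values were 221 FPKM in cell 9, 109 in cell 4, 52.7 in cell 6, 46.4 in cell 11, 42.2 in cell 17, 19.6 in cell 5, 14.9 in cell 18, 5.52 in cell 12 and 1.37 in cell 7, and 0 in the other cells. Cells 9, 17, 11 and 4 rested on 382, 35, 32 and 21 fragments and the remaining 5 on 1 to 8.

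Hba-a2 was detected in fewer cells. Hba-a2 (ENSMUSG00000069917.7, chromosome 11, 32296489 to 32297298, plus strand) was detected in 4 cells (6.78%, interval 1.88 to 16.5%; 62.1% of genes in as many), with 100 FPKM in cell 34, 90.1 in cell 9, 7.34 in cell 17 and 1.22 in cell 23. Cell 34 held 44 fragments of Hba-a2 and 0 of Hba-a1, while cells 4 and 11 held 21 and 32 of Hba-a1 and 0 of Hba-a2. Only cells 9 and 17 had both, with 382 against 128 and 35 against 5 fragments. In every cell with at least 3 haemoglobin fragments but 9 and 17, at most 1 alpha gene of this near-identical pair was detected.

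The beta genes were detected in 5 cells, and cell 15 had a value below 1 FPKM. Hbb-bs (ENSMUSG00000052305.6, chromosome 7, 103826534 to 103828096, minus strand) had 166 FPKM in cell 5, 106 in cell 9, 25.0 in cell 17 and 2.79 in cell 10, from 18, 194, 22 and 2 fragments. Hbb-bt (ENSMUSG00000073940.3, chromosome 7, 103812524 to 103813996, minus strand) had 204 FPKM in cell 5 from 18 fragments, and 24.5 FPKM in cell 2 and 0.746 in cell 15 from 1 fragment each. As many or more cells detected 62.1% of genes for Hbb-bs and 76.7% for Hbb-bt. Cell 9 held 194 fragments of Hbb-bs and 0 of Hbb-bt, while cell 5 held both. All Hbb-bs fragment numbers are even and could be 0.5 times those given, so fragments of the beta genes are not compared with each other. Such numbers would need an Hbb-bs length below its 444 coding bases. With them, cell 10 would hold a single fragment.

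**Figure D4:**
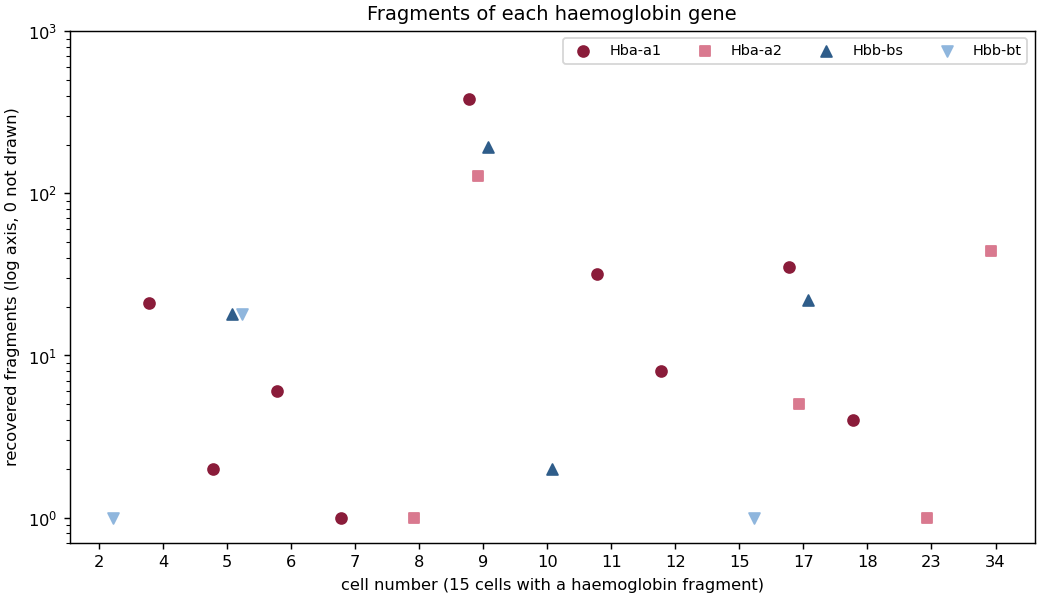
Recovered fragments of each haemoglobin gene (log vertical axis, zeros not drawn) in the 15 cells with any (horizontal axis); each symbol is 1 gene in 1 cell. Cell 9 stands highest with 382 fragments of Hba-a1, and cells 2, 7, 8, 15 and 23 hold a single fragment.

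The balance of alpha and beta differed between the cells that held both. The log2 ratio of summed alpha to summed beta FPKM was 1.56 in cell 9 and 0.99 in cell 17, and -4.24 in cell 5, where alpha rested on 2 fragments. Cells 34, 11 and 4 had 44, 32 and 21 alpha fragments and 0 of beta. With 3 cells no common ratio can be given.

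Few other red cell genes were confined to cells with haemoglobin. Of 20 listed erythroid genes 11 were measured, of which the 13 cells with haemoglobin had 1 to 5, and the other 9 were not analysed here. Alas2, the red cell enzyme that starts haem synthesis, was detected in 0 of 59 cells, with a highest value of 0.815 FPKM in cell 17. This allows up to 5.08% by the approximation of 3 over the number of cells, which is not the exact interval. Gata1 (an erythroid transcription factor) was found only in cell 9 (4.81 FPKM), Car1 (carbonic anhydrase) in 2 cells that both held haemoglobin, and Epor in 2 cells without it. Rhd was found only in cell 12 (74.9 FPKM), which held haemoglobin. Of 9 cells with Slc25a37 and 10 with Ube2l6, 2 each held haemoglobin. The widely detected members Bnip3l (48 cells), Fech (35 cells) and Bpgm (29 cells) are also made outside red cells. Summed haemoglobin correlated at 0.05 with the mean level of this list, at 0.11 with the number of genes detected and at -0.11 with depth. Among other globin genes, Cygb (cytoglobin) was detected in 34 cells, Ngb (neuroglobin) in 6, Mb in 2 and Hbq1a only in cell 9, at 1.55 FPKM.

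Vessel genes were few apart from cell 9. Of 13 measured endothelial and mural genes the median cell had 0 and the highest was cell 9 with 8, followed by cell 8 with 4. Cdh5 (vascular cadherin, 4.12 FPKM) and Abcb1a (a blood-brain barrier pump, 1.63 FPKM) were detected in cell 9 alone, and Ly6c1 (63.8 FPKM) in cells 9 and 17. Rgs5, the most widely detected of the list, was found in 10 cells, 5 of them with haemoglobin, and was highest in cell 12 (102 FPKM). Ly6a was found in 4 cells, 2 of them with haemoglobin, and was highest in cell 11 (148 FPKM). Haemoglobin correlated with the mean of this list at 0.32 (Pearson 0.46), and with the lists of neurons at 0.21, of astrocytes at 0.04 and of microglia at -0.03. Cells 2, 4, 7, 18 and 34 held haemoglobin with none of the 13 genes, and cells 5, 6, 10, 11, 12, 17 and 23 held it with 1 to 3 of them. Markers of platelets and white cells were scarce, with Ptprc the highest in 8 cells and Cd79b at 0, and S100a9 was found in cell 2 at 165 FPKM. The part that blood or vessel RNA has in the haemoglobin values was not tested.

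Haem synthesis and breakdown genes were detected without following haemoglobin. Of 18 genes 15 were measured, the median gene was detected in 27.1% of cells, and the correlation of their mean level with haemoglobin was 0.15. Hmox2 (a haem oxygenase) was found in 36 cells, 9 of them with haemoglobin, and Hmox1, its stress-induced counterpart, in 14, of which 2 had haemoglobin. Cd163 (a scavenger receptor for haemoglobin on macrophages) was found in 1 cell, without haemoglobin.

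Ttr and haemoglobin were not held by the same set of cells. Both were detected in 6 cells (6, 7, 9, 10, 11 and 17), where the product of their shares gives 5.51, while 19 cells had Ttr alone, 7 had haemoglobin alone and 27 had neither. The product is over all 59 cells, although the 28 cells numbered above 34 had no haemoglobin and include 10 with Ttr. The Spearman correlation of their levels was 0.13 and the Pearson correlation 0.0035, over 59 cells that share library and depth. Of the 11 cells with the most Ttr, cell 9 held 382 fragments of Hba-a1, 128 of Hba-a2 and 194 of Hbb-bs. Cells 7, 8 and 15 held 1 haemoglobin fragment each and the other 7 held 0. Of these 7, cells 49, 50, 51, 52 and 62 are numbered above 34, where no cell had haemoglobin. Genes most like haemoglobin had low correlations for such sparse values, with Pafah1b3 at 0.52, Syt2 at 0.51, Mylip at 0.46, Eid2b at 0.45 and Cd24a at 0.43.

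Haemoglobin and Ttr were also set against the labelled cell numbers. Every haemoglobin value above 0 lay in cells numbered 2 to 34, and the 28 cells numbered above 34 were all at 0. Ttr was detected in 15 of the 31 cells numbered up to 34 and in 10 of those 28. Median depth was 848555 fragments in the lower-numbered and 1177540 in the higher-numbered cells, while the median number of genes detected was 4561 and 3821.5. The bound of 34 was read from the haemoglobin values, so the lack of haemoglobin above it is fixed by that choice. Ttr cannot be compared with haemoglobin at this bound. The labels tie the numbers to no animal, day or batch, and their part in the result was not tested.

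Detection of the members ranged over cells of very different quality. Cells held 29043 to 2950402 fragments by estimate (median 912996), and 475 to 10310 genes were detected (median 3984). Genes of organs outside the brain, listed as a measure of stray signal, had a median detection of 5.08% of cells over 7 measured genes of 14 listed. The genes not measured do not enter this value. Cela1 was detected in 12 cells, with up to 765 FPKM in cell 38, and Myh7 in 11. The others were detected in at most 5, down to Apoa1 and Krt5 in 1 each. Ins2 was detected in 3 cells, all with 2393 to 5275 FPKM of Ttr, so this gene overlapped with high Ttr. The detection of all 4 haemoglobin genes, from 3.39 to 15.3% of cells, lies within the range of these genes, and that of Ttr, 42.4%, above it. For Hba-a1, with 9 cells, this holds only through Cela1 and Myh7. Whether any member, or any gene of this list, is stray signal was not tested. Ttr correlated at -0.37 and haemoglobin at -0.09 with the share of spike-in RNA, which is high where little RNA was recovered.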

How the data were processed

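The authors deposited FPKM values in 1 table, in which each cell has its own column. Per the submitters' processing notes, STAR 2.5.3a, featureCounts 1.5.3 and GRCm38 were used; the annotation release is not given in the sources used here. All 59 columns matched a sample title, and 51 spike-in rows were left out. A gene counts as detected from an FPKM of 1, and levels were taken as log2(FPKM + 1). Fragments were recovered from FPKM and GENCODE M21 exon lengths (19358 genes, 93.6%), with a median of 73.3% of low values whole, so no count model was used. For Ttr and Hbb-bs this needed lengths of 1219 and 863 bases in place of 1186 and 768. Fragments of Hbb-bs are all even and could be 0.5 times those given, which would need a length below its 444 coding bases.

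The members, 13 gene lists (213 genes, 172 measured) and alternatives were chosen with earlier results of these data known. Named genes are the members, the 10 and 5 genes most like Ttr and haemoglobin among those detected in at least 12 cells, and up to 8 per list by detection or by presence in cells holding a member. Further choroid plexus, vitamin A, vessel and red cell genes, and Myh7 and Ins2, were named after their values had been seen. Depth recovery and likeness were run on simulated data (19358 genes), where 20 of 20 planted genes ranked highest. How well either works in the measured cells, where a median of 73.3% of low values were whole, was not tested by this. Python 3.11.15, pandas 2.3.3 and scipy 1.17.1 were used.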

Additional observations from a re-analysis of the deposited data

How the results depend on the processing

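For 21 results 128 alternative values were computed: 114 lay within the spread of the main one, 14 moved, and a change of sign occurred in 0. The spread was the exact interval of a share, the SD over cells of a level, a change of 0.2 in a correlation and a factor of 1.5 for a count. The SD is wide for such sparse levels. For Ttr the mean level was 2.90 with an SD of 4.26, so 4.37 and 1.72 with pseudocounts of 0.1 and 10 lay within it. For levels, lying within the spread therefore says little. The correlation of a named gene cannot change when genes detected in at least 6 cells are ranked, so its agreement there is fixed. Cells with at least 500000 fragments were added as an alternative after the data had been seen. In those 39 cells Hbb-bt was detected in 0% (which allows up to 7.69% by the approximation of 3 over the number of cells), since cells 2 and 5 are shallower. The share of cells with Ttr ran from 33.9% at an FPKM of 5 to 49.2% with any FPKM above 0. Cells with Ttr and haemoglobin numbered 3 at an FPKM of 5 or with 3 fragments and 9 with any FPKM above 0 or after rescaling each cell to the same gene sum. The genes most like Ttr depended on the setting: of the 10, 4 were shared with Pearson correlation, 5 and 3 with its pseudocounts of 0.1 and 10, 6 without the 3 highest cells, 4 in the 46 cells with at least 2000 genes and 4 in the 39 deeper cells. Of the 5 most like haemoglobin, 1 was shared with Pearson correlation, 0 with a pseudocount of 10, 2 without the 3 highest cells, 2 with genes detected in at least 6 cells, 2 in the 46 cells and 0 in the 39. The cause was not tested. No paired analysis was possible because there is 1 group. The median log2 ratio of alpha to beta FPKM was 0.99 over 3 cells and 1.27 over the 2 with at least 3 fragments of each. Values of 1 to 3 fragments of a member are imprecise at any depth, and occur in shallow cells (cell 1, with 92393 fragments in all) and in deep ones (cell 21, with 2934695).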

Other observations

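Ttr and haemoglobin values have neighbours among the labelled cell numbers. Cells 49, 50, 51 and 52 all had at least 642 FPKM of Ttr, while cells 43 to 48 were at 0. Cells 7, 8 and 9 likewise had at least 868 FPKM. The labels give no meaning to the order of the numbers. Crabp1 (a retinoic acid-binding protein) reached its highest level, 1399 FPKM, in cell 61, which had 73.1 FPKM of Ttr and none of the choroid plexus genes.

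Genes of ependymal cells, the ciliated lining of the ventricles next to the choroid plexus, were measured beside Ttr. Foxj1 (a transcription factor for motile cilia) was detected in 13 cells, 3 of them with at least 100 FPKM of Ttr, and Ccdc153 in 8, of which 5 were at that level. The Spearman correlation of Ttr with the mean level of the ependymal and fibroblast list was 0.22 over 59 cells (Pearson 0.32), against 0.59 for the choroid plexus list. Cells 8 and 17 had the most genes of this list, 8 of 11.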
